A study of Mus musculus with 42 samples.

Results

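The RNA of the 7 complex I genes of mouse mitochondrial DNA (mtDNA) was followed through 7 RNA-seq library protocols in liver homogenate (input) and in RNA that came down with tagged cytosolic ribosomes (IP). The genes mt-Nd1, mt-Nd2, mt-Nd3, mt-Nd4, mt-Nd4l, mt-Nd5 and mt-Nd6 were taken by name and are 7 of the 47729 genes in the data and 7 of the 13 protein-coding genes of mtDNA. The list was drawn up from values of these same libraries, namely the change from input to IP in exon counts (RPKM for SMTer) and the difference between kits for mt-Nd5 and mt-Nd6. Those values are therefore given as a description with no test. The contrasts between amounts of RNA within a kit were not used in the choice, and they were tested.

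Complex I carries electrons from NADH to ubiquinone in the inner mitochondrial membrane and pumps protons as it does so. The subunits encoded by mtDNA form the core of its membrane arm, while the other subunits are encoded in the nucleus, made on cytosolic ribosomes and imported. The mtDNA mRNAs are cut from long transcripts of both strands and are read by mitochondrial ribosomes, which are separate from cytosolic ribosomes and do not contain Rpl22.

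All libraries came from 3 mice with the genotype Gfi1Cre/+;RiboTagHA/HA, in which both copies of Rpl22, a protein of the large cytosolic ribosomal subunit, carry an HA tag that Cre switches on. Cre was expressed from the Gfi1 locus, so the tag was expected only in cells with Gfi1 expression or descended from such cells, and mice without Cre are not analysed here. The methods give an age of 30 days and the labels give postnatal day 1, and no result here uses the age. Both fractions of each mouse went through 7 protocols, which gave 42 libraries in 14 groups of 3. The NEBNext Ultra Directional (NEB), NuGEN Ovation V2 (NuG) and SMARTer Stranded (SMTer) kits each received 4 ng. TruSeq received 4 ng (Tru4) or 70 ng (Tru70), and SMART-Seq v4 received 4 ng (SMTseq4) or 0.25 ng (SMTseq0.25). NEB, TruSeq and SMART-Seq v4 take RNA with a poly(A) tail through oligo-dT, SMTer uses random primers after which rRNA products are removed, and NuG mixes both kinds of primer. SMTer keeps the strand of the RNA. The sources differ on NEB, whose kit is named directional while the study's text counts SMTer as the only stranded kit. The SMART-Seq v4 libraries were sequenced at another centre than the rest, so kit and centre cannot be told apart for them.

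The exon counts summed to between 464199 and 762562 per library in SMTer and between 3223153 and 45466334 in the other protocols. In NEB, NuG, SMTer and Tru4 the libraries of replicate 3 carry, in the study's table of detected features, the number of the opposite fraction. The fraction of these 8 libraries was exchanged accordingly, and values with the fractions as labelled are given beside the main ones. The tag was checked by its driver: Gfi1 had between 0 and 9 counts in the 21 input libraries and between 0 and 49 in the 21 IP libraries, which is too few to rank single libraries. None of the hepatocyte markers was at 0 in all libraries of any group. The same held for the Kupffer cell, endothelial and erythroid markers, so this is no test of the liver label.

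The members lie on the mitochondrial chromosome (MT, GRCm38) as single-exon genes without introns. On the plus strand are mt-Nd1 (MT:2751-3707), mt-Nd2 (MT:3914-4951), mt-Nd3 (MT:9459-9806), mt-Nd4l (MT:9877-10173), mt-Nd4 (MT:10167-11544) and mt-Nd5 (MT:11742-13565). The only member on the minus strand is mt-Nd6 (MT:13552-14070), whose mRNA is known from human cells for having no stable poly(A) tail. As read on its own strand, mt-Nd6 contained 28.1% G and 5.97% C, while the other members contained between 8.0% and 11.6% G. The genes mt-Nd4l and mt-Nd4 are known to be read from a single shared mRNA, and their annotations overlap by 7 bases. The genes mt-Nd5 and mt-Nd6 lie on opposite strands and overlap by 14 bases at their 3′ ends. The last 60 bases of both genes are shown because reads over the shared stretch can be given to a gene by strand alone, with the shared 14 bases in capitals (5′ to 3′ on the strand of the gene, GENCODE transcripts on GRCm38).
mt-Nd5 (MT:13506-13565, plus strand): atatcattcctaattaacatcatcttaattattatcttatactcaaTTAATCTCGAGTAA
mt-Nd6 (MT:13552-13611, minus strand): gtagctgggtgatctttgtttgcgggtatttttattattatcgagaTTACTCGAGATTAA

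Of the members, 3 have a near-identical copy on the minus strand of nuclear chromosome 1, where a stretch of mtDNA is annotated as a row of unprocessed pseudogenes. Gm28438 (chr1:24612775-24613119) matched mt-Nd3 in 344 of 345 bases, Gm10222 (chr1:24612407-24612700) matched mt-Nd4l in 294 of 294, and Gm28439 (chr1:24611535-24612410) matched mt-Nd4 in 876 of 876. The first 60 bases of mt-Nd3 and its copy are shown because they hold the single base that separates them, in capitals. The substitution is T3C, counted from 1 at the first base of mt-Nd3.
mt-Nd3 (MT:9459-9518, plus strand): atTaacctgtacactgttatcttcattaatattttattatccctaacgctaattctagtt
Gm28438 (chr1:24613060-24613119, minus strand): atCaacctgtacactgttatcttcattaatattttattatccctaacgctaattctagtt
In mt-Nd4 the copy ends inside the gene and leaves 502 bases that the copy does not cover. The stretch across that end is shown with the last bases shared with Gm28439 in capitals.
mt-Nd4 (MT:11013-11072, plus strand): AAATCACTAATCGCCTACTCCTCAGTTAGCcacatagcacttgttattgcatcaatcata
For mt-Nd1 the search of annotated transcripts found no copy, and the copies found for mt-Nd2, mt-Nd5 and mt-Nd6 matched at 92.4% to 96.7% of the aligned bases.

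The 2 deposited measurements treated these copies differently. The exon counts of mt-Nd3 never exceeded 6 and those of mt-Nd4l never exceeded 2 in any of the 42 libraries, although mt-Nd3 stood at 50.8 to 2027 RPKM and mt-Nd4l at 46.5 to 7542 RPKM. The RPKM values correspond to between 535 and 72399 reads for mt-Nd3 and between 1181 and 195946 reads for mt-Nd4l. In the same libraries, Gm28438 was listed at 100.1% to 117% of the RPKM of mt-Nd3 (median 102%), and Gm10222 at 90.2% to 101% of that of mt-Nd4l (median 100.4%). The exon counts of these copies were low as well, with at most 420 for Gm28438 and 100 for Gm10222. So for mt-Nd3 and mt-Nd4l only RPKM can be reported, and it cannot be told apart from the RPKM of the nuclear copy. For mt-Nd4 the exon counts were between 0.27 and 1.01 per 2 reads of the RPKM value outside SMTer, and the copy was listed at 11.1% to 119% of its RPKM. In the rest of the text, levels are RPKM (reads per kilobase of gene, scaled by the authors to the mapped reads). RPKM puts the members on the same scale per length, but it takes in reads of both strands, which limits comparison between members. The edgeR changes rest on the exon counts of the 5 members that have them.

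In input, the members together took 1.34% ± 0.202 (SD, n = 3) of the mapped reads in Tru70, 2.79% ± 0.531 in Tru4, 1.43% ± 0.314 in NEB and 3.73% ± 0.0686 in NuG. The share was 0.880% ± 0.331 in SMTer, 0.954% ± 0.132 in SMTseq0.25 and 0.934% ± 0.143 in SMTseq4. In every protocol all 3 IP shares lay below all 3 input shares, with IP means between 0.123% in SMTer and 1.30% in NuG.

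The order of the members in input changed with the protocol. The highest mean RPKM was that of mt-Nd4 in NEB (2957 ± 622), NuG (8296 ± 52.8), Tru4 (6275 ± 967) and Tru70 (3555 ± 407), that of mt-Nd1 in SMTseq0.25 (2514 ± 493) and SMTseq4 (2464 ± 471), and that of mt-Nd6 in SMTer (2266 ± 779). The RPKM of mt-Nd6 in SMTer overlapped that of the next member, mt-Nd4l (1737 ± 672), and takes in reads of both strands. The lowest was mt-Nd5 in NEB and both SMART-Seq v4 protocols, mt-Nd3 in NuG, SMTer and Tru4, and mt-Nd6 in Tru70. Many neighbours in this order were not separated by the spread of 3 libraries. In NEB input each of the 7 members overlapped the next, from mt-Nd4 down to mt-Nd5 (1212 ± 276). In NuG input mt-Nd4, mt-Nd4l, mt-Nd5 and mt-Nd1 led the order and only mt-Nd5 and mt-Nd1 overlapped among them, while mt-Nd3 (427 ± 21.3) lay far under mt-Nd2 (4078 ± 310). In Tru70 input mt-Nd4, mt-Nd1, mt-Nd4l and mt-Nd2 overlapped in turn, mt-Nd5 (1022 ± 240) overlapped mt-Nd3 (859 ± 78.6), and mt-Nd6 (685 ± 104) lay under mt-Nd3 and overlapped mt-Nd5.

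In IP the order was more alike between protocols. The gene mt-Nd1 was highest in all 7 protocols and was separated from the next member in all but SMTer. The lowest was mt-Nd5 in NEB, both SMART-Seq v4 and both TruSeq protocols, mt-Nd3 in NuG and mt-Nd2 in SMTer. In Tru70 IP, mt-Nd1 stood at 1343 ± 278 RPKM, mt-Nd4 at 465 ± 55.3 and mt-Nd5 at 28.8 ± 2.39.

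**Figure D1:**
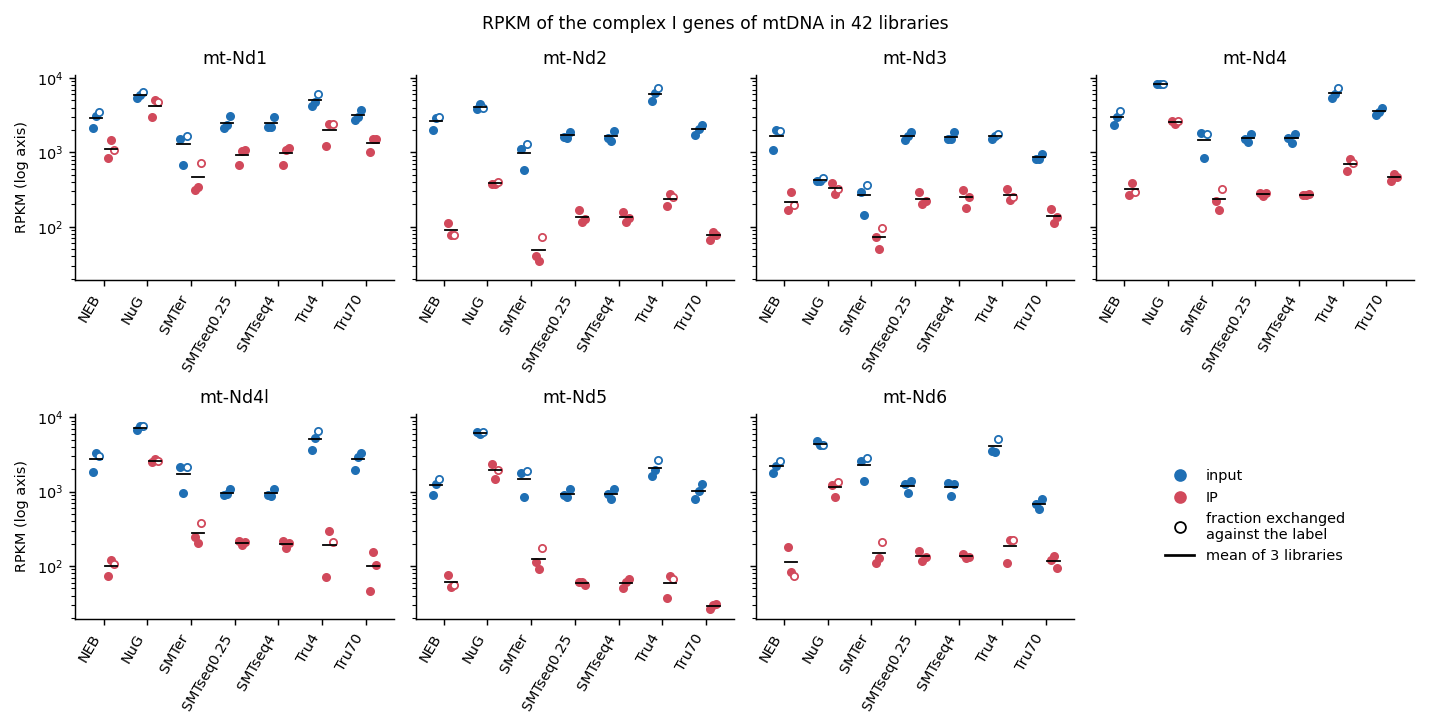
RPKM (log axis) of each member in all 42 libraries, by protocol, with input in blue, IP in red, open points for the libraries whose fraction was exchanged against the label, and a line at the mean of 3 libraries. The IP points lie under the input points of the same protocol for all members except mt-Nd1 in SMTer, and the ratio of the means is widest for mt-Nd2 or mt-Nd5 in each protocol.

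The change from input to IP is described member by member, in the order of the genes on the chromosome. Across all 7 protocols, 7 of 7 members had all IP libraries below all input libraries in RPKM, except in SMTer with 6 of 7. The same was true of 20.8% of all genes with an RPKM of at least 1 in at least 3 libraries in NEB, 7.76% in NuG, 10% in SMTer, 45.0% in SMTseq0.25, 48.0% in SMTseq4, 26.2% in Tru4 and 24.3% in Tru70. These shares are printed for scale only, because the members were chosen by this contrast.

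The gene mt-Nd1, a membrane-arm subunit next to the ubiquinone site, kept the largest share of its input level in 6 of 7 protocols. In Tru70 it stood at 2746, 3024 and 3708 RPKM in the input of mice 1, 2 and 3, and at 1022, 1509 and 1499 in their IP. In NEB the values were 2137, 3115 and 3498 in input and 828, 1479 and 1074 in IP. In NuG they were 5404, 5958 and 6396 in input and 2965, 5004 and 4780 in IP. In each of these protocols the highest IP library was below the lowest input library, with the narrowest gap in NuG. In SMTer the input of mouse 2 (676 RPKM) was lower than the IP of mouse 3 (729 RPKM), so the fractions overlapped. The IP mean was 36.2% of the input mean in SMTer, 71.8% in NuG and between 36.7% and 42.5% in the other 5 protocols. By mouse, mouse 2 kept the largest share in every protocol, from 44.4% in SMTseq0.25 to 84% in NuG, and mouse 1 the smallest in every protocol but NEB.

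The gene mt-Nd2, a membrane-arm subunit of the antiporter-like kind, kept under 10% of its input level in all protocols. In Tru70 it stood at 1717, 2056 and 2324 RPKM in input and 66.2, 85.6 and 78.6 in IP. In NuG, where every member kept its largest share in RPKM, the values were 3839, 4428 and 3967 in input and 376, 379 and 396 in IP. In NEB they were 2013, 2889 and 2959 in input and 112, 78.6 and 78.4 in IP. In these 3 protocols the gap between the fractions was wider than the whole spread of either group. The share left in IP was lowest in NEB (3.42%), Tru70 (3.78%) and Tru4 (3.90%), and it was 4.98% in SMTer, 8.05% in SMTseq0.25, 8.12% in SMTseq4 and 9.40% in NuG.

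The gene mt-Nd3, a small membrane subunit, showed the widest range of shares over protocols. In NuG it stood at 415, 414 and 452 RPKM in input and 388, 278 and 318 in IP, so 76.8% was left and the lowest input library was above the highest IP library by a small margin. In the other protocols between 13% (NEB) and 27.5% (SMTer) was left. In Tru70 the values were 825, 803 and 949 RPKM in input and 171, 113 and 136 in IP. The IP of mouse 1 was the highest of 3 in NuG, both SMART-Seq v4 and both TruSeq protocols, where the IP of mouse 1 was the lowest for mt-Nd1.

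The pair mt-Nd4l and mt-Nd4, subunits of the membrane arm read from 1 mRNA, did not keep the same share in every protocol. In Tru70, mt-Nd4l stood at 1963, 2925 and 3266 RPKM in input and 46.5, 154 and 104 in IP, which left 3.73%. In the same libraries mt-Nd4 stood at 3178, 3501 and 3986 RPKM in input and 408, 519 and 468 in IP, which left 13.1%. So mt-Nd4l kept a smaller share than mt-Nd4 in Tru70, and this was also so in Tru4 (3.75% and 11.2%) and NEB (3.69% and 10.8%). In SMTseq0.25 the shares were 21.1% for mt-Nd4l and 17.6% for mt-Nd4, in SMTseq4 20.5% and 17.5%, in NuG 35.7% and 30.8%, and in SMTer 15.9% and 16.0%. Both genes share most of their bases with a nuclear copy, as shown above.

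The gene mt-Nd5, an antiporter-like subunit at the far end of the membrane arm, kept the smallest share of all members in 4 protocols. In Tru70 it stood at 787, 1014 and 1266 RPKM in input and 26.1, 29.6 and 30.7 in IP. In Tru4 the values were 1600, 1984 and 2653 in input and 37.7, 73.2 and 67.6 in IP. In NuG they were 6283, 5957 and 6416 in input and 2346, 1477 and 1971 in IP. The share left was 2.81% in Tru70, 2.86% in Tru4, 5.05% in NEB, 6.26% in SMTseq0.25, 6.38% in SMTseq4, 8.41% in SMTer and 31.1% in NuG. The NuG share thus stood apart from the rest, with all 3 mice (24.8% to 37.3%) above all mice of the other protocols (2.36% to 10.7%). These shares rest on RPKM, which takes in reads of both strands. In SMTer a larger part of the reads over mt-Nd5 was of the opposite strand in IP than in input. In NEB a smaller part of its reads was counted in IP than in input, as given below.

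The gene mt-Nd6, a membrane subunit and the only member on the other strand, had the largest disagreement between the 2 TruSeq amounts. In Tru70 it stood at 682, 582 and 790 RPKM in input and 122, 135 and 93.6 in IP, which left 17%. In Tru4 the values were 3574, 3451 and 5129 in input and 111, 221 and 222 in IP, which left 4.56%. In NEB they were 1772, 2194 and 2599 in input and 179, 82.5 and 73.9 in IP, which left 5.12%. The IP levels of Tru4 and Tru70 thus overlapped, while the input levels were far apart. The share left was 6.56% in SMTer, 11.5% in SMTseq0.25, 11.9% in SMTseq4 and 25.9% in NuG. These shares rest on RPKM, and most reads over mt-Nd6 in NEB input and in Tru70 IP were not counted for it in the exon counts, as given below. In SMTer input the reads over mt-Nd6 were largely of the opposite strand.

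**Figure D2:**
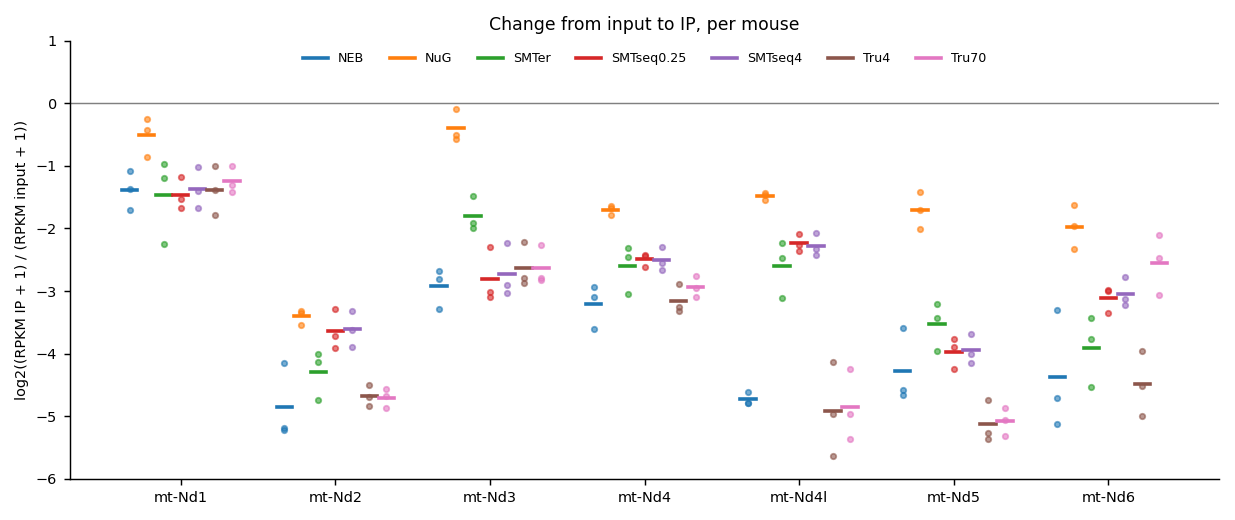
Change from input to IP of each member as log2 of the ratio of RPKM + 1, with a point for each of 3 mice, a bar at their mean and a colour for each protocol. All points lie below 0, and the mean of mt-Nd1 lies nearest to 0 in each protocol except NuG, where that of mt-Nd3 does.

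On the exon counts with TMM scaling, edgeR gave changes of the same sign for all 5 members that could be counted. For mt-Nd1 the log2 change from input to IP was between -1.78 (Tru4) and -1.20 (SMTseq4), and for mt-Nd2 between -5.10 (Tru70) and -3.38 (SMTseq0.25). For mt-Nd4 it was between -3.23 (NuG) and -2.12 (SMTseq0.25). For mt-Nd5 it was -5.96 (SE 0.33) in NEB, -5.63 (SE 0.28) in Tru4, -5.90 (SE 0.28) in Tru70 and -2.83 (SE 0.23) in NuG. For mt-Nd6 it was -2.71 (SE 0.69) in NEB, -4.82 (SE 0.25) in Tru4, -5.01 (SE 0.25) in Tru70 and -2.97 (SE 0.22) in NuG. In both SMART-Seq v4 protocols mt-Nd5 changed by about the same amount (-3.81 and -3.85), and so did mt-Nd6 (-2.78 and -2.72). In each counted protocol the value of mt-Nd6 was also the median of the 5 counted members. The scale matters most in NuG, where the median change of all genes was 0.02 on the log2 scale under TMM and 1.60 when scaled by the library total, a move of 1.57, against 0.43 to 0.55 in the other counted protocols. There mt-Nd1 changed by -1.64 (SE 0.20) under TMM and by -0.51 ± 0.32 (SD, 3 mice) in RPKM, and its IP and input libraries overlapped when scaled by the total.

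With the fractions as labelled, replicate 3 moved in the opposite direction to replicates 1 and 2, and the means of the fractions lay closer together. The share left as labelled was between 80.1% and 91.8% for mt-Nd1 in the 4 protocols concerned, and between 54.5% and 77.8% for mt-Nd2. For mt-Nd5 it was between 71.1% and 75.7%, and for mt-Nd6 between 60.5% and 75.4%. All members overlapped between the labelled fractions. No gene passed edgeR's or limma's threshold as labelled in any of the 4 protocols, with 293 (NEB), 91 (NuG), 28 (SMTer) and 37 (Tru4) genes at an unadjusted p under 0.05.

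Both fractions came from the same livers. The mix of cell types in the IP and changes of RNA within a cell type cannot be told apart in these bulk samples. Hepatocyte markers fell along with the members, while Kupffer cell and erythroid markers rose. Summed over the 10 hepatocyte markers (Alb, Apoa1, Ttr and others), input libraries of the 6 counted protocols held 64408 to 200839 CPM (exon counts scaled to the library total) and IP libraries 22398 to 37312. In each protocol 9 or 10 of the 10 fell (7 in NuG when scaled by the library total), with a median log2 change between -2.74 and -2.0 over all 7 protocols. In SMTer they summed to between 2303 and 4434 RPKM in input and between 482 and 929 RPKM in IP. The 10 Kupffer cell markers, such as Clec4f and Vsig4, summed to between 237 and 545 CPM in input and between 9364 and 28192 in IP, and all that could be tested rose (9 of 9 in SMTer, where they summed to 8.89 to 14.6 RPKM in input and 305 to 625 RPKM in IP, and 10 of 10 elsewhere). The 5 erythroid markers (the globins and Alas2) summed to between 368 and 2509 CPM in input and between 16449 and 225794 CPM in IP in the counted protocols. In SMTer they summed to between 579 and 1065 RPKM in input and between 14025 and 21192 RPKM in IP. In each protocol 5 of 5 rose. Of all genes tested, 5.82% were higher in IP in NEB, 24.0% in NuG, 13.2% in SMTer, 19.8% in SMTseq0.25, 30.4% in SMTseq4, 25.9% in Tru4 and 18.1% in Tru70. Of the genes that passed in the 6 counted protocols, 51.5% to 53.6% were higher in IP under TMM and 72.3% to 96.5% when scaled by the library total. The 8 markers of sinusoidal endothelium summed to between 147 and 249 CPM in input and between 304 and 891 CPM in IP in the counted protocols. In SMTer, where only 1 of the 8 could be tested, they summed to 2.46 to 5.17 RPKM in input and 4.56 to 10.9 RPKM in IP, which overlapped. By protocol, between 1 and 3 of the markers rose and between 0 and 5 fell. Their median was below 0 under TMM and above 0 when scaled by the library total in NEB, NuG (-0.94 and 0.64) and both SMART-Seq v4 protocols. No marker of these lists was at 0 in all libraries of a group. The part of this shift in the change of the mtDNA genes was not tested. In exon counts the median change of the counted members was -5.01 in Tru70, where that of the hepatocyte markers was -2.37, and -2.72 in SMTseq4, where it was -2.74. Both of these medians of the members were the value of mt-Nd6. In RPKM the medians of the counted members and of the hepatocyte markers were -2.93 and -2.11 in Tru70. They were -3.04 and -3.05 in SMTseq4.

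The other genes of mtDNA fell from input to IP as well. The log2 change of mt-Cytb, a subunit of complex III, was between -4.60 and -3.52, and that of mt-Co1, the catalytic subunit of complex IV, between -4.94 and -3.32. The ribosomal RNAs mt-Rnr1 and mt-Rnr2, which sit in the mitochondrial ribosome itself, changed by -4.14 to -2.53 and by -4.03 to -2.61. The other mRNAs, mt-Co2, mt-Co3, mt-Atp6 and mt-Atp8, have near-identical stretches in the same copy on chromosome 1, and in RPKM they kept between 1.47% (mt-Atp8 in Tru4) and 45.6% (mt-Co3 in NuG) of their input level. Part of mt-Co1 also has a near-identical stretch there (Gm29216, 482 of 483 bases), and Gm13340 on chromosome 2 matches all of it at 97.6%. The effect of these copies on the exon counts of mt-Co1 was not tested. All of these genes passed the threshold of edgeR (limma in SMTer) wherever they were tested, with 2 or more of the 6 other mRNAs and 2 of 2 rRNAs tested in each protocol. Of all genes tested, 5.34% were lower in IP in NEB, 20.9% in NuG, 6.99% in SMTer, 17.1% in SMTseq0.25, 28.7% in SMTseq4, 24.2% in Tru4 and 16.7% in Tru70.

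The exon counts and the RPKM did not follow the same reads for mt-Nd5 and mt-Nd6, and this bears on how these genes differ between kits. RPKM values of mtDNA genes multiplied by gene length and mapped reads came out within 0.01 of a whole number in 1538 of 1538 cases, which gives the number of reads behind each. A read pair that is counted once holds 2 reads, so an exon count for every 2 reads gives a ratio near 1. Over protein-coding single-exon genes the median of this ratio was between 0.961 and 1.08 in 6 protocols and was 0.0154 in SMTer. Genes that lie under the exons of a gene on the opposite strand had a mean count of at least 10 in 15 of 21 cases in SMTer and in 8 of 23 in NEB, against 1 or 2 of 21 to 28 in the other protocols. In SMTer the exon counts thus followed the strand opposite to the gene, and the strand setting of the counting step is not given in the sources used here.

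For mt-Nd1 the ratio was near 1 in both fractions of every protocol but SMTer, with values between 0.93 and 1.16. For mt-Nd5 it was 0.92, 0.93 and 0.96 in NEB input and 0.15, 0.42 and 0.52 in NEB IP. In SMTer, where the opposite strand was counted, it was 0.16, 0.17 and 0.18 in input and 0.94, 0.69 and 0.80 in IP. So in SMTer a larger part of the reads over mt-Nd5 was of the opposite strand in IP than in input, and in NEB a smaller part of its reads was counted in IP, with no overlap between the fractions in either kit. What the uncounted reads of NEB were was not tested. In NEB the change in exon counts (-5.96) was larger than that in RPKM (-4.28).

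For mt-Nd6 the ratio went the other way in both kits. It was 0.16, 0.13 and 0.14 in NEB input and 0.50, 0.26 and 0.32 in NEB IP, and in SMTer it was 1.43, 1.40 and 1.40 in input and 0.90, 1.12 and 1.0 in IP. In SMTer input the reads over mt-Nd6 were thus largely of the opposite strand, and in NEB input most of them were not counted for mt-Nd6. In NEB the change in exon counts (-2.71) was smaller than that in RPKM (-4.38). In Tru70, which does not keep the strand, the ratio of mt-Nd6 was 0.58, 0.52 and 0.54 in input and 0.09, 0.13 and 0.16 in IP, while in Tru4 it stayed between 0.69 and 0.74 in both fractions. The low IP ratio of Tru70 goes with a change of -5.01 in exon counts and of -2.55 in RPKM, and what the uncounted reads were was not tested. For mt-Nd2 the ratio was slightly lower in IP in NEB (0.94 to 0.96 in input, 0.87 to 0.92 in IP), and in SMTer it was 0.02 in input and between 0.22 and 0.30 in IP.

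**Figure D3:**
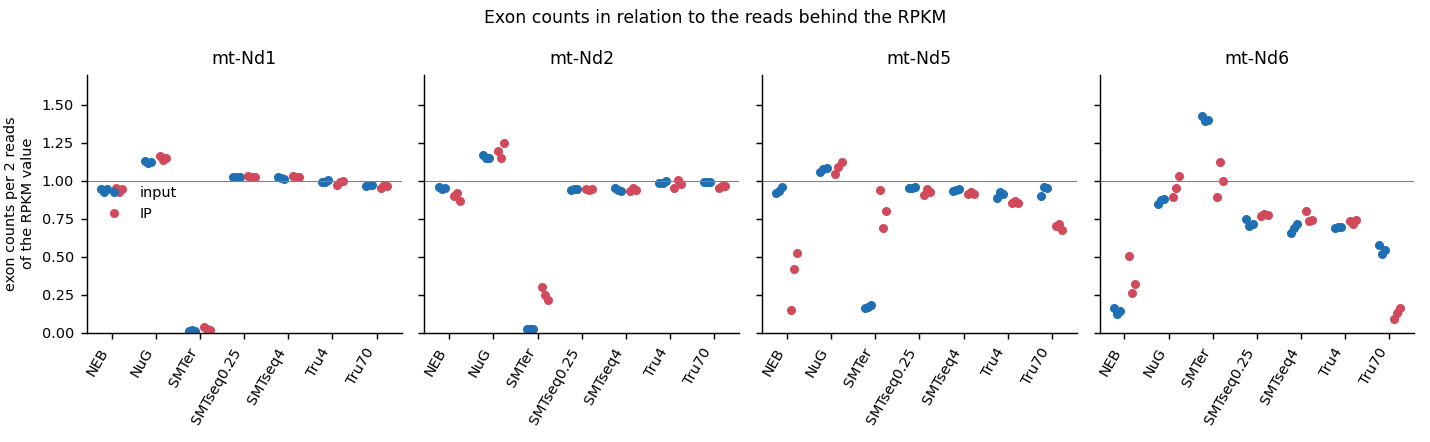
Exon counts per 2 reads of the RPKM value for mt-Nd1, mt-Nd2, mt-Nd5 and mt-Nd6, with a point for each library, input in blue and IP in red. In NEB the IP points of mt-Nd5 drop from above 0.9 to between 0.15 and 0.52 and those of mt-Nd6 rise, in SMTer the same genes move the opposite way, and in Tru70 only the IP of mt-Nd6 stands near 0.1.

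The amount of RNA was compared within the TruSeq kit and within SMART-Seq v4, with the same mice in both arms. By the paper's methods, Tru4 also had a reduced end-repair reaction, no size selection and more PCR cycles than Tru70. The TruSeq contrast is therefore one of amount and protocol steps together, and the part of each was not tested. The log2 difference of Tru4 against Tru70 was above 0 for all 5 counted members in input and in IP, 2 of them passed the threshold in each fraction, and the largest difference was that of mt-Nd6. In CPM, mt-Nd6 stood at 1874, 1713 and 2594 in Tru4 input and at 280, 199 and 292 in Tru70 input. In IP it stood at 76.9, 117 and 124 in Tru4 and at 9.03, 12.7 and 10.7 in Tru70. The libraries of the 2 amounts were apart by more than their spread in both fractions. The log2 difference was 3.03 (SE 0.22, edgeR adjusted p = 0.00318) in input and 3.26 (SE 0.22, edgeR adjusted p = 0.00351) in IP. In RPKM the difference in IP was 0.61 (SE 0.33, limma adjusted p = 0.522), with a 95% interval from -0.17 to 1.38, so in IP mt-Nd6 passed the threshold in exon counts and did not pass it in RPKM.

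The gene mt-Nd2 stood at 7449, 8768 and 10452 CPM in Tru4 input and at 2426, 2700 and 3145 in Tru70 input. The log2 difference was 1.72 (SE 0.16, edgeR adjusted p = 0.00502) in input and 1.77 (SE 0.17, edgeR adjusted p = 0.0179) in IP. For mt-Nd5 it was 1.10 (SE 0.23, edgeR adjusted p = 0.0625) in input and 1.40 (SE 0.19, edgeR adjusted p = 0.0881) in IP. The values of mt-Nd1 were 0.84 (SE 0.17, edgeR adjusted p = 0.0609) and 0.69 (SE 0.19, edgeR adjusted p = 0.317), and those of mt-Nd4 were 0.67 (SE 0.13, edgeR adjusted p = 0.0533) and 0.81 (SE 0.22, edgeR adjusted p = 0.317). So 2 of 5 counted members passed the threshold in each fraction, where 0.981% of all genes tested passed in input (147 genes, 0.434% higher in Tru4) and 0.0392% in IP (6 genes, all higher in Tru4). With the mouse as a block, 5 of 5 members passed in both fractions, and so did 2336 genes in input and 1517 in IP. These calls rest on all 3 mice: without mouse 1 and without mouse 2 no member passed in either fraction, and without mouse 3 there were 3 in input and 0 in IP, while the differences themselves moved little. As labelled, no gene passed in either fraction.

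For mt-Nd3 and mt-Nd4l the amount could be compared in RPKM alone. In input mt-Nd3 was higher in Tru4 by 0.94 on the log2 scale (SE 0.11, limma adjusted p = 0.00716), and the difference of mt-Nd4l was 0.91 (SE 0.28, limma adjusted p = 0.0760). In IP the differences were 0.94 (SE 0.24, limma adjusted p = 0.227) and 0.85 (SE 0.63, limma adjusted p = 0.661). Only the first of these passed the threshold.

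Within SMART-Seq v4, the libraries from 0.25 ng and from 4 ng gave no counted member past the threshold. The log2 difference was between 0.04 (mt-Nd4) and 0.17 (mt-Nd6) in input and between -0.06 (mt-Nd1) and 0.07 (mt-Nd4) in IP. The 95% intervals reached from -0.33 to 0.67 for mt-Nd6 in input and from -0.71 to 0.79 for mt-Nd2 in IP, which were the widest bounds in input and in IP. In edgeR no gene passed between the SMART-Seq v4 amounts, with 350 genes in input and 249 in IP at an unadjusted p under 0.05, and DESeq2 called 3 and 6 genes. The kits were run with different pairs of amounts, so the differences were not compared between them.

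**Figure D4:**
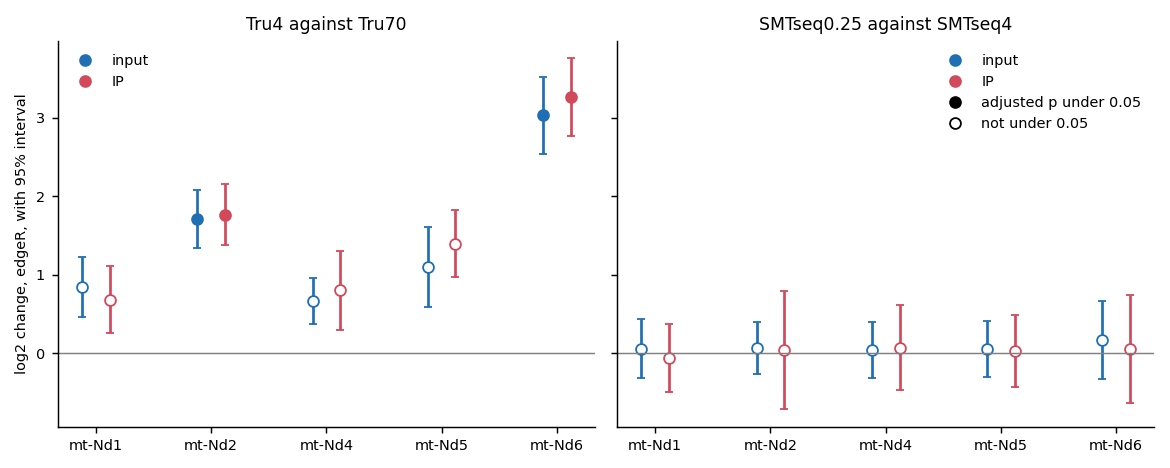
Log2 change with the 95% interval (edgeR) of the 5 counted members for the smaller against the larger amount of RNA, in TruSeq (left) and SMART-Seq v4 (right), with input in blue, IP in red and filled points for an adjusted p under 0.05. In TruSeq all points lie above 0 and those of mt-Nd2 and mt-Nd6 are filled, and in SMART-Seq v4 all intervals include 0. The TruSeq arms also differed in end repair, size selection and PCR cycles.

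The nuclear-encoded subunits of complex I, whose mRNAs are read by cytosolic ribosomes, are set beside the mtDNA genes here. Of the 36 listed subunits edgeR with TMM (limma in SMTer) called none higher in IP, and those lower were 2 of 34 tested in NEB, 27 of 35 in NuG, 0 of 21 in SMTer, 23 of 36 in SMTseq0.25, 24 of 36 in SMTseq4, 22 of 36 in Tru4 and 17 of 36 in Tru70. Among all genes tested, 5.34% were lower in NEB, 20.9% in NuG and 6.99% in SMTer. That share was 17.1% in SMTseq0.25, 28.7% in SMTseq4, 24.2% in Tru4 and 16.7% in Tru70. The median log2 change of the subunits was between -1.20 (NuG) and -0.56 (SMTer), against medians of the members between -5.01 and -2.61 and medians of all genes tested between -0.06 and 0.06. Scaled by the library total, 11 were higher and 1 lower in NuG, where the median turned from -1.20 to 0.36 (-1.23 relative to all genes), and in the other counted protocols 0 to 2 were higher and 0 to 12 lower. In SMTer, where limma called 0, 4 subunits were at an unadjusted p under 0.05 and median-ratio scaling gave 21. With the mouse as a block the count was 5 in NEB and 8 in SMTer, and in NEB it was 6 with DESeq2, 5 without a filter on low counts and 0 to 1 with 1 mouse left out. In SMTseq0.25 the count fell to 13 without mouse 2 or without mouse 3, in Tru4 it was 30, 13 and 9 and in Tru70 16, 7 and 5 without mouse 1, 2 and 3 in turn, and as labelled it was 0 in NEB, NuG and Tru4.

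Of the 7 nuclear-encoded core subunits, which carry the flavin and the iron-sulphur clusters, 6 were lower in NuG, SMTseq0.25, SMTseq4 and Tru70, 5 in Tru4, 1 in NEB and 0 of the 6 tested in SMTer, where limma gave 1 at an unadjusted p under 0.05. Ndufs7 passed in no protocol and had a median log2 change of -0.24 over the 6 counted protocols. The lowest medians of all nuclear subunits were those of Ndufv1 (-1.79), the flavin-binding core subunit, Ndufa10 (-1.59), an accessory subunit, and Ndufs1 (-1.58), a core subunit with iron-sulphur clusters. All 3 passed in 5 of 6 counted protocols. The highest were those of the accessory subunits Ndufb7 (0.28), Ndufb3 (0.22) and Ndufa2 (0.04). Ndufb7 was lower in 1 protocol, and Ndufb3 and Ndufa2 passed in none. The changes of mt-Nd2, mt-Nd4, mt-Nd5 and mt-Nd6 in single counted protocols were all below the lowest of these medians (-1.79). The changes of mt-Nd1 (-1.78 to -1.20) lay within the range of the medians of the nuclear subunits. This sets medians over protocols beside values of single protocols. The mtDNA genes were chosen by this contrast, so it is a description only.

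Factors that assemble complex I or handle mitochondrial RNA are also made on cytosolic ribosomes. Of 14 assembly factors edgeR with TMM (limma in SMTer) called none higher in IP, and those lower were 0 in NEB, 8 in NuG, 0 of 2 tested in SMTer, 6 in SMTseq0.25, 10 in SMTseq4, 8 in Tru4 and 4 in Tru70. Among all genes tested, 5.34% were lower in NEB, 20.9% in NuG and 6.99% in SMTer. That share was 17.1% in SMTseq0.25, 28.7% in SMTseq4, 24.2% in Tru4 and 16.7% in Tru70. Neither edgeR in NEB nor limma in SMTer gave an assembly factor at an unadjusted p under 0.05, and DESeq2 called 0 in NEB. Scaled by the library total, 4 were higher in NuG and 0 to 1 in the other counted protocols, and the median was above 0 in NuG (0.35) and NEB (0.23). The lowest medians were those of Ndufaf6 (-1.75) and Ecsit (-1.71) and the highest those of Ndufaf8 (0.14) and Tmem126b (-0.24). Of 17 mitochondrial RNA factors the same tests called none higher, and those lower were 0 of 16 in NEB, 3 in NuG (17.6%, under the share of all genes tested), 0 of 2 in SMTer, 6 in SMTseq0.25, 11 in SMTseq4, 9 in Tru4 and 5 in Tru70. At an unadjusted p under 0.05 there were 2 in NEB (edgeR) and 0 in SMTer (limma), and DESeq2 called 1 in NEB, Lrpprc. DESeq2 also called 1 higher in Tru4, Mterf1a (1.17, adjusted p = 0.0375, against 1.13 and 0.0827 in edgeR). Scaled by the library total, 12 were higher in NuG, where the median was 0.92, and 0 to 2 in the other counted protocols. The lowest medians were those of Polrmt (-1.32), the mitochondrial RNA polymerase, and Fastkd2 (-1.27), an RNA-binding protein of the organelle. The highest were those of Fastkd3 (-0.01) and Mterf1a (-0.12), a factor of transcription termination. Lrpprc, which stabilises mtDNA mRNAs together with Slirp, had a median of -1.25 and was lower in 5 of 6 counted protocols, while Slirp had -0.37 and passed in none. Grsf1, which binds RNA from the strand that gives mt-Nd6, had -0.82 and was lower in 5, and Fastk, which is known to be needed for the mRNA of mt-Nd6, had -0.16 and was lower in 2.

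**Figure D5:**
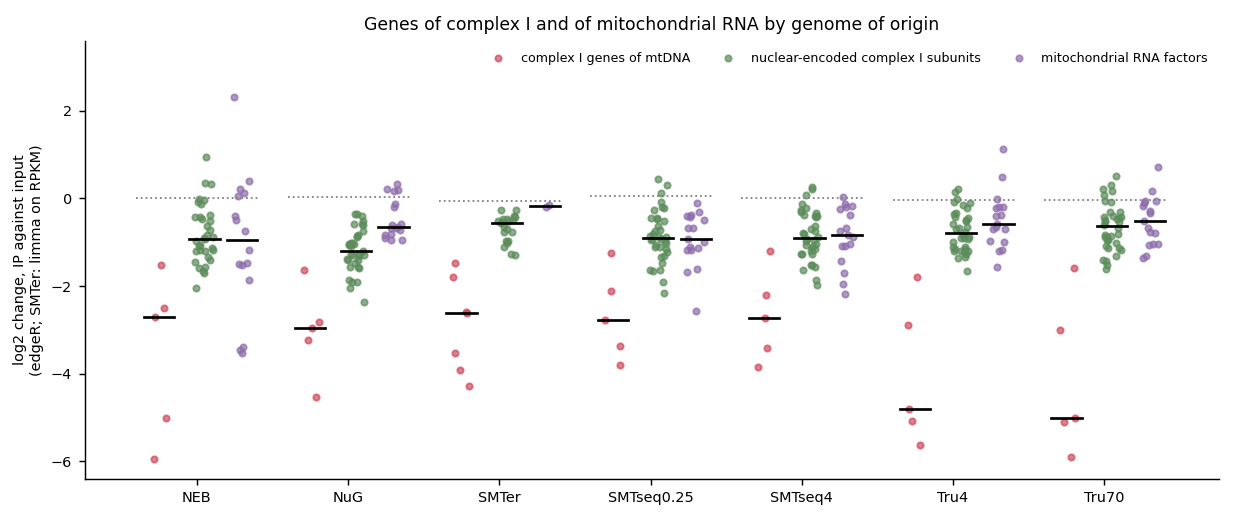
Log2 change from input to IP (edgeR, or limma on RPKM in SMTer) of the members (red), the nuclear-encoded complex I subunits (green) and the mitochondrial RNA factors (purple), with a point for each gene tested, a bar at the median and a dotted line at the median of all genes tested. The bars of the mtDNA genes lie between -5.01 and -2.61, under those of both nuclear groups in every protocol. Outside SMTer each of these bars is at the value of mt-Nd6.

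Among themselves, the 5 counted members followed each other over the 36 libraries of the 6 counted protocols, with Pearson's r of log2(CPM + 1) between 0.78 (mt-Nd1 with mt-Nd2) and 0.93 (mt-Nd2 with mt-Nd4). These libraries share 3 mice, the kits and the split into input and IP, so r is a description. Outside mtDNA, the genes most like the mean of the members among 9031 genes included F5 (r = 0.926), coagulation factor V, Cat (0.915), catalase, Ceacam1 (0.911), a cell adhesion protein, and Elovl2 (0.894), a fatty acid elongase. Cat stood at mean values between 2089 and 2844 CPM in the input groups, and between 525 and 1840 in the IP groups. Its highest IP mean, like that of F5, Ceacam1 and Elovl2, was that of NuG, the protocol in which the members kept most of their level in RPKM. Under TMM the fall was smallest in NuG for mt-Nd5 (-2.83) but not for mt-Nd1, mt-Nd2, mt-Nd4 or mt-Nd6. There the median log2 change of the counted members was -2.97 in NuG, -2.71 in NEB, -2.78 in SMTseq0.25 and -2.72 in SMTseq4. It was -4.82 in Tru4 and -5.01 in Tru70. Each of these medians was the value of mt-Nd6, whose exon counts left out most reads in NEB input and Tru70 IP. In RPKM the medians of the counted members were -4.28 in NEB and -2.93 in Tru70. Of the 10 hepatocyte markers the closest was Cps1 (0.808), a mitochondrial enzyme of the urea cycle encoded in the nucleus, and the least close was Apoa1 (0.351).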

How the data were processed

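RNA-seq was measured in 42 libraries, in 14 groups of 3 by the protocol and fraction of the labels, with replicate numbers taken as mice. The authors removed adapters with Trimmomatic, trimmed with the FASTX Toolkit, aligned to GRCm38 with TopHat, counted with HTSeq and Bedtools and deposited exon counts per gene (whole numbers, not normalized) and RPKM values, both used here as deposited. RPKM of nuclear protein-coding genes gave whole reads in 79.4% of values with the gene span and in 4.39% with the exonic length, so it covers introns there. The members and gene lists were chosen with earlier results of these data known. Gene names came from the GENCODE annotation of GRCm38 (47310 of 47729 genes), and copies were found with BLAST 2.17.0 among annotated transcripts.

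Exon counts were tested with edgeR 4.0.16 (TMM, filterByExpr, quasi-likelihood, Benjamini-Hochberg adjusted p under 0.05) for each contrast alone. SMTer was tested with limma 3.58.1 on log2(RPKM + 1) over genes with an RPKM of at least 1 in at least 3 libraries. RPKM changes per mouse use the same pseudocount of 1, which understates the change of low genes. Exon counts summed to between 464199 and 45466334 per library, so 3 counts are between 0.0660 and 6.46 CPM (counts scaled to the library total). The number of libraries limits the precision. The p-values measure the spread between the 3 libraries of a group, taken as 3 mice. With the mouse as a block they measure the spread left after differences between mice are taken out.

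By the methods the RNA of 3 mice was split between the protocols, but the methods do not tie the replicate numbers to mice. Same-numbered libraries were taken to come from the same mouse. Their deviations from the group means correlated above 0.1 for every number in the 4 contrasts of RNA amount and in NuG, SMTseq4, Tru4 and Tru70 (lowest 0.0256 in NEB, 0.0314 in SMTer and 0.0994 in SMTseq0.25). The procedure was tested on simulated data modelled on the input of Tru70, NuG and SMTer, with a single fixed spread and no pairing. NEB and the contrasts of RNA amount were not simulated. Named genes are all members, the other mRNAs and rRNAs of mtDNA, the 3 nuclear subunits and 2 assembly or mitochondrial RNA factors at each end of the median change over the 6 counted protocols, Lrpprc, Slirp, Grsf1 and Fastk, and the 5 genes most like the members (Pearson's r, mean CPM of at least 10), of which 1 is not reported here, with Gfi1 as a check. The clauses on cell types name markers from lists of 10 hepatocyte, 10 Kupffer cell, 8 endothelial and 5 erythroid genes. Alternatives were fractions as labelled, leaving out each mouse, the mouse as a block, DESeq2 1.42.0, other scalings and filters, and RPKM in place of exon counts. Protein sequences and the authors' comparisons were not used here.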

Additional observations from a re-analysis of the deposited data

How the results depend on the processing

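The median change of the members from input to IP was below 0 under all 73 settings run. The members were chosen by this change, so its sign is given as a description only. The sizes moved with the fractions, the unit and the scaling. In exon counts under TMM the main median was the value of mt-Nd6 in each counted protocol. As labelled the median was -0.40 in NEB, -0.65 in NuG, -0.96 in SMTer and -0.38 in Tru4. With RPKM in place of exon counts it was -4.28 in NEB, -1.71 in NuG, -3.11 in SMTseq0.25, -3.04 in SMTseq4 and -2.93 in Tru70, and over all 7 members, an alternative added after seeing the data, -4.28 in NEB, -1.70 in NuG and -2.93 in Tru70. With exon counts it was -1.17 in SMTer. Scaled by the library total it was -1.40 in NuG, -2.33 in SMTseq0.25, -2.20 in SMTseq4, -4.28 in Tru4 and -4.58 in Tru70, and without mtDNA genes in the total -2.47, -2.37, -2.25, -4.37 and -4.62. Total scaling moved the median of all genes by 0.43 to 1.57 against TMM, and relative to that median the members stood at -2.99 in NuG and -4.98 in Tru70. Leaving out 1 mouse gave -4.09 to -2.24 in NEB, with -4.09 without mouse 1, and -5.16 to -4.83 in Tru70. The block for the mouse moved no median by more than the spread between mice.
The counts of nuclear-encoded subunits lower in IP also moved. In NEB, where it was 2, it was 5 with the replicate block or without a filter, 6 with DESeq2, 0 as labelled and 0 to 1 with 1 mouse left out. In SMTer, where it was 0, it was 8 with the replicate block, 21 with median-ratio scaling and 0 to 1 with 1 mouse left out. As labelled it was 0 in NuG and Tru4. Scaled by the library total, an alternative added after seeing the data, it was 0 in NEB, 1 in NuG (with 11 higher), 10 in SMTseq0.25, 12 in SMTseq4, 11 in Tru4 and 7 in Tru70, and without mtDNA genes in the total 0, 19, 11, 15, 14 and 7. With 1 mouse left out it was 13 to 17 in SMTseq0.25, 9 to 30 in Tru4 and 5 to 16 in Tru70.
For Tru4 against Tru70 in input, where 2 members and 147 genes passed, the replicate block gave 5 and 2336, DESeq2 5 and 854, no filter 5 and 328, limma on RPKM 5 of 7 members (not mt-Nd1 and mt-Nd4l) and 1164 genes, scaling by either total 4 members, and the fractions as labelled 0 and 0. Leaving out 1 mouse gave 0 to 3 members and 0 to 7 genes. In IP, where 2 members and 6 genes passed, the block gave 5 and 1517, DESeq2 4 and 294, no filter 3 and 50, limma on RPKM 0 of 7 members and 2 genes, the fractions as labelled 0 and 0, and leaving out 1 mouse 0 and 0. Between the SMART-Seq v4 amounts DESeq2 called 3 genes in input and 6 in IP, and no member. The cause of these moves was not tested.
With 3 libraries a group, and 1 mouse left out 2, a lost call does not show that values did not differ.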
